A study of Prunus dulcis with 36 samples.

Results

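The fruits described here were normally developed fruitlets of the almond (Prunus dulcis) cultivar 'ZhiPi' at 22, 27 and 32 days after flowering (DAF). They made up 9 of the 36 samples of the series and 3 of its 12 groups, with 3 replicates in each group, and they were chosen by fruit condition and stage alone. The study also sampled 12, 17 and 37 DAF, and at each stage it took abnormal fruits, which were atrophied and likely to be shed, from the same branches as the normal ones. Per the methods, each replicate was a mix of chopped whole fruits from a tree, taken in the morning from unshaded positions, and the RNA-seq samples came from 3 independent trees, so no tissue of the fruit was measured on its own. All fruits were untreated, and the comparisons below asked which transcripts changed as the normal fruits passed through their middle stages of enlargement.

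A young almond is a drupe. A fleshy hull and the future shell grow first by cell division and then by cell expansion, the shell later becomes lignified, and the embryo fills the kernel last. Expansion draws on sugar import, water uptake through aquaporins and loosening of pectin in the walls. Lignification draws on class III peroxidases, laccases and the phenylpropanoid pathway, and storage proteins mark the filling of the seed.

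The deposited values were 1 mean normalized FPKM (fragments per kilobase of transcript, scaled to library size) for each unigene and group, which leaves every difference below without a replicate error or a P-value. A unigene is an assembled transcript and is called here by its assembly number. Of 8676 listed unigenes, 6464 were above 0 FPKM at 1 or more of the 3 stages. A unigene was counted as changed when log2(FPKM + 1) differed by more than 1, a scale on which the change of weak unigenes is understated. The columns differed in level: over the 4091 unigenes above 0 at all 3 stages, the median of ratios put 27 DAF above 22 DAF by 0.36 on the log2 scale, and 32 DAF relative to 27 DAF at −0.45. The shift from 22 to 32 DAF was −0.09. The column totals gave shifts of 0.43, −0.07 and 0.36 in the same order. Whether these shifts belong to the scaling of the columns or to the fruits was not tested. In the text, "rose" and "fell" are kept for unigenes past 1 both in the values as deposited and after division by the median-of-ratios factors, and other differences are given as values. Normal fruits had the most clean reads at 27 DAF and the fewest at 32 DAF, the same order as the number of unigenes above 0, and the part of depth in the counts was not tested. There were 5232 unigenes above 0 in the first group, 5393 in the second and 4872 in the third.

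From 22 to 27 DAF, 1500 unigenes were higher and 880 lower in the deposited values, which is 17.3% and 10.1% of those listed. After median-of-ratios scaling the counts were 1158 (13.3%) and 1039 (12%), and with equal column totals they were 1145 and 1135, so the surplus of higher unigenes depended on the scale of the columns. The 1158 that rose (13.3%) and the 880 that fell (10.1%) passed in both settings. From 27 to 32 DAF the direction was the opposite, with 672 unigenes higher (7.75%) and 1622 lower (18.7%) as deposited, and 835 (9.62%) and 1171 (13.5%) after scaling. Here lower unigenes outnumbered higher ones under each of the 3 scalings, and 672 rose (7.75%) and 1171 fell (13.5%) in both settings. Both steps share the values of 27 DAF, so a unigene with a high or low value there counts in both.

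**Figure D1:**
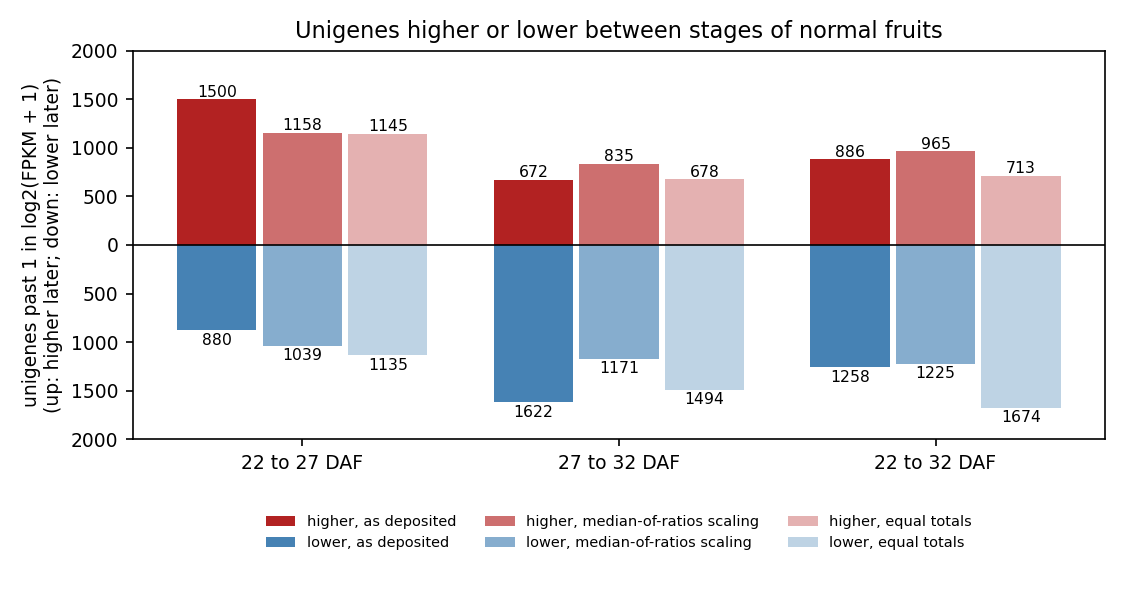
Number of unigenes with a difference in log2(FPKM + 1) larger than 1 between stages of normal fruits; bars above 0 are unigenes higher at the later stage, bars below 0 are lower ones, and shades give the 3 scalings of the columns. The 22 to 27 DAF bars go from 1500 against 880 as deposited to 1145 against 1135 with equal totals.

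The comparison of 22 with 32 DAF does not use the middle stage. It gave 886 higher (10.2%) and 1258 lower unigenes (14.5%), and the scaled counts of 965 (11.1%) and 1225 (14.1%) were close to these because the shift between the columns was small. With equal totals the counts were 713 and 1674. For 613 of the 886 higher unigenes the level at 27 DAF lay between both ends or equalled one of them, for 198 it lay above both and for 75 below both. Among the 1258 lower unigenes, 992 lay between, 202 above and 64 below. These unigenes were picked for ends more than 1 apart, and in both sets the median at the lower end was 0 FPKM. The selection thus favours a level between the ends, and no typical course is read from these counts. A further 4320 unigenes above 0 ended within 1 of their starting level, of which 891 were more than 1 above both ends at 27 DAF and 127 more than 1 below both, as deposited.

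Many of the counted changes were between a level of 0 and a low level. From 22 to 27 DAF, 870 unigenes went from 0 to a value above 0, of which 239 reached 10 FPKM or more, and 709 went to 0. From 27 to 32 DAF, 535 came up from 0 and 1056 went to 0. Those above 0 at a single stage numbered 536 for the earliest, 624 for the middle and 362 for the latest, with median levels of 5.17, 5.19 and 4.52 FPKM. Among the 4523 unigenes above 0 at both 22 and 27 DAF, 752 were higher and 265 lower as deposited, against 437 and 421 after scaling. The 4337 above 0 at both 27 and 32 DAF gave 230 and 727, against 386 and 327. The sign of this second balance turned with the scaling, so neither direction of it is read as a change of the fruits.

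**Figure D2:**
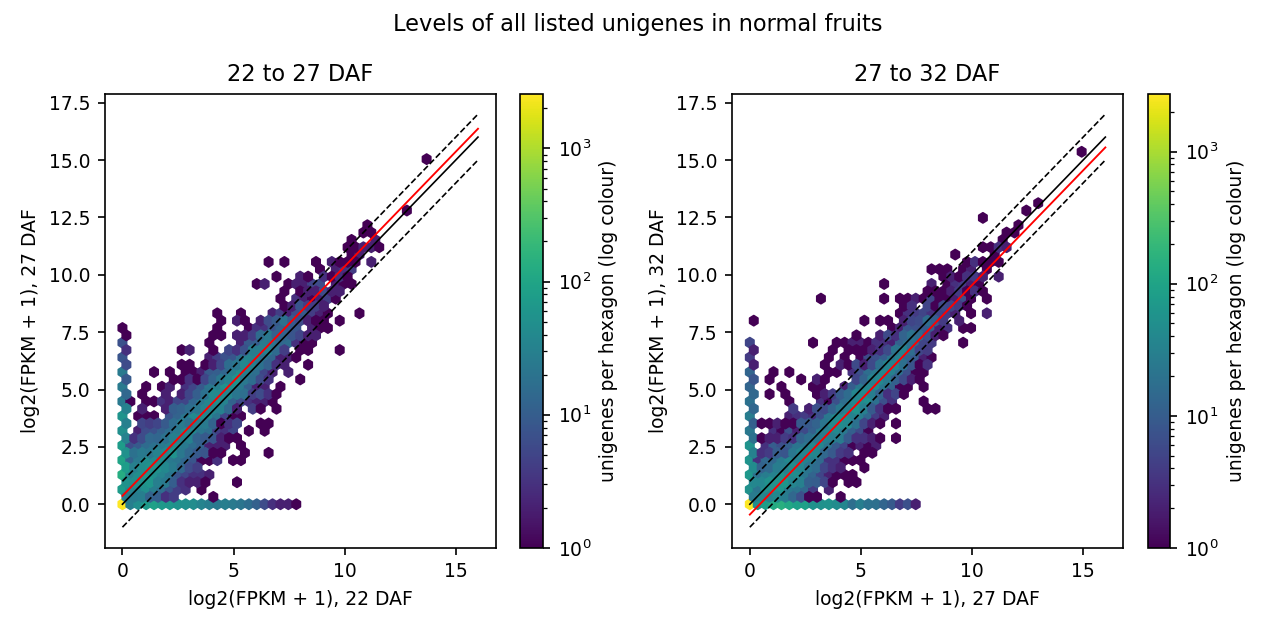
Density of the 8676 listed unigenes by log2(FPKM + 1) at the earlier stage (x axis) and the later stage (y axis) in normal fruits; the black line is equality, dashed lines are differences of 1, and the red line is the median-of-ratios shift of 0.36 (22 to 27 DAF) or −0.45 (27 to 32 DAF). The rows along both axes are unigenes listed at 0 at a single stage.

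The few most abundant unigenes took a growing part of the listed signal. The top 10 unigenes held 17.0% of the column total at 22 DAF, 21.0% at 27 DAF and 28.5% at 32 DAF. The leading unigene, DN23546_c1_g1, had 12832 FPKM at 22 DAF, 33104 at 27 DAF and 44836 at 32 DAF, or 5.40%, 10.3% and 14.7% of the totals. DN20837_c0_g1 went from 2071 to 5256 and 7105 FPKM, while DN24536_c0_g1, the second most abundant, had 7925, 7759 and 9292 FPKM. The first pair rose over the interval from 22 to 32 DAF, by 1.80 and 1.78 on the log2 scale. None of these 3 unigenes had an annotation entry here. Among the 467 unigenes with a mean of 100 FPKM or more, 76 were higher and 28 lower at 32 than at 22 DAF, and 91 and 24 after scaling. In the 2812 unigenes with means from 1 to 10 FPKM the balance was the other way, with 454 higher and 746 lower.

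The annotation held here covered 753 of the listed unigenes. For 423 of them the best match was a protein of the genus Prunus, mostly peach and Japanese apricot, and 370 of these were above 0 at 1 stage or more. They included 73 unigenes that rose (17.3% of 423) and 29 that fell (6.86%) from 22 to 27 DAF, beside 13.3% and 10.1% of all listed unigenes. In the later step 43 rose (10.2%) and 51 fell (12.1%), beside 7.75% and 13.5% of all. Over the whole interval 68 rose (16.1%) and 46 fell (10.9%), beside 10.2% and 14.0% of all. The shares do not allow for the larger part above 0 among the Prunus matches, 370 of 423 against 6464 of 8676. The named unigenes below come from these, from 25 that the study names with their IDs, and from unigenes with other best matches. Some unigenes without an annotation are given by their assembly number.

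From 22 to 27 DAF, the named almond unigenes with the largest rises were signalling, sugar transport and protease inhibitor genes. The 10 largest rises lay between 1.90 and 4.33 on the log2 scale, and all 10 passed in both settings. A calmodulin-like calcium-binding protein, CML44 (DN13459_c0_g1), had 1.86, 56.4 and 4.60 FPKM at the 3 stages. It rose by 4.33 on the log2 scale and then fell by 3.36. ZAT5 (DN14998_c0_g1), a C2H2 zinc finger transcription factor, had 6.67, 99.2 and 38.0 FPKM and rose by 3.71. Cysteine proteinase inhibitor 5 (DN16037_c0_g1), which blocks papain-type proteases, had 2.34, 38.2 and 3.54 FPKM. The sugar transporter SWEET12 (DN25084_c2_g5), which in Arabidopsis exports sucrose towards the phloem, had 5.29, 43.4 and 8.20 FPKM. These unigenes were high at 27 DAF only or, for ZAT5, higher there than at either neighbouring stage.

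Other unigenes shared this peak. A glyoxalase-like protein (DN13563_c0_g1) had 50.1, 248 and 58.7 FPKM. Monogalactosyldiacylglycerol synthase 2 (DN15381_c0_g2), which makes galactolipids of plastid membranes, had 22.5, 86.4 and 40.4 FPKM. BIG BROTHER-related ubiquitin ligase (DN10111_c0_g1), whose Arabidopsis relative limits organ size, had 5.23, 29.1 and 10.8 FPKM. A C2 domain protein (DN16379_c0_g1) had 8.92, 36.9 and 22.2 FPKM, and a WAT1-related protein (DN15597_c0_g1), from a family of membrane transporters, had 2.86, 21.1 and 12.1 FPKM. For the last 2 the later decline did not pass 1, and for the galactolipid synthase, the ubiquitin ligase and ZAT5 it passed as deposited only. The second largest rise of all unigenes with 1 FPKM or more at both stages was in an unannotated one, DN17327_c0_g1, with 5.39, 107 and 10.3 FPKM. The unannotated DN26135_c1_g1 (18.5, 302 and 15.2 FPKM) and DN25513_c1_g1 (0.801, 30.1 and 1.01 FPKM) were the 2 unigenes with the largest falls from 27 to 32 DAF. They fell by 4.22 and 3.95 on the log2 scale, and both had come up from a low level at 22 DAF.

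Peroxidase 72 (DN18908_c0_g2), a class III peroxidase that in Arabidopsis takes part in lignification, was alone among the 10 in going on upward. It had 13.7, 55.1 and 100.4 FPKM and rose by 1.93 from 22 to 27 DAF. The next difference was 0.85 as deposited and 1.30 after scaling, and at 37 DAF the unigene had 668 FPKM. A gibberellin-regulated protein (DN26787_c1_g1), named by the study, rose by 2.00 in the first step and then held its level, with 9.89, 42.7 and 47.1 FPKM.

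The deepest named falls from 22 to 27 DAF were in 2 unigenes that recovered afterwards. A subunit of mitochondrial complex I, the MLRQ subunit (DN20037_c0_g1), had 33.8 FPKM at 22 DAF, 1.15 at 27 DAF and 46.9 at 32 DAF, so it fell by 4.02 and rose by 4.48. Acyl-[acyl-carrier-protein] desaturase 6 (DN20506_c0_g1), of the plastid enzymes that place the first double bond in fatty acids, had 87.3, 3.41 and 42.3 FPKM. It gave the largest fall of all unigenes with 1 FPKM or more at both stages, by 4.32, and rose again by 3.30. Both had a low at 27 DAF and no net difference past 1 in both settings from 22 to 32 DAF.

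A further 4 of the 10 largest named falls passed in both settings and stayed low. Aquaporin TIP1-3 (DN14028_c0_g1), a water channel of the vacuolar membrane, had 27.3, 3.03 and 0.837 FPKM and fell by 2.81 in the first step and by 3.95 over the whole interval. DIR1 (DN14988_c0_g1), a lipid-transfer protein of systemic defence signalling in Arabidopsis, had 26.7, 5.97 and 4.32 FPKM. A heavy metal-associated isoprenylated protein (DN18117_c0_g1) had 32.7, 10.4 and 7.53 FPKM, and a proline-rich DC2.15-like protein (DN14733_c0_g1) had 70.1, 24.4 and 21.8 FPKM. All of these fell in the first step and moved by less than 0.5 in the second, apart from TIP1-3, at −1.13 as deposited and −0.85 after scaling. Of the 10 largest named falls only 5 passed in both settings. The other 5 lay between −0.80 and −0.94 as deposited and between −1.12 and −1.29 after scaling; they were ERF021, RNA-binding protein CP33, a WEB family protein, a reticuline oxidase-like protein and NAC domain protein 61. Of these, ERF021 rose again by 1.25 and NAC domain protein 61 (DN23947_c0_g2) had 172, 98.1 and 173 FPKM.

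The named rises from 27 to 32 DAF included single unigenes of protein folding, transcription, respiration and protein turnover. Heat shock cognate 70 kDa protein (DN27837_c1_g4), a general protein-folding chaperone, had 29.8, 25.3 and 117 FPKM and rose by 2.17. Chaperone protein dnaJ 11 (DN9504_c0_g1), a chloroplast co-chaperone, had 161, 123 and 293 FPKM and rose by 1.24. WRKY75 (DN26011_c0_g2), a transcription factor of phosphate and senescence responses in Arabidopsis, had 23.7, 29.4 and 106 FPKM and rose by 1.82. All of them changed little between 22 and 27 DAF.

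Several genes of other roles also rose late. Cytochrome b-c1 complex subunit 8 (DN13220_c0_g1), part of mitochondrial complex III, had 256, 184 and 515 FPKM. The dioxygenase AOP1 (DN15629_c0_g1) had 18.2, 35.7 and 95.6 FPKM, and a VQ motif protein (DN25536_c0_g1), from a family that binds WRKY factors, had 84.5, 136 and 331 FPKM. Ubiquitin ligase RMA1H1 (DN26268_c1_g2) had 59.2, 48.5 and 122 FPKM. All 10 of the largest named rises, between 1.19 and 4.48, passed in both settings.

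Among all unigenes with 1 FPKM or more at both stages, the largest rise in the later step was in DN27529_c3_g1, which has no annotation here and went from 8.70 to 467 FPKM, by 5.59 on the log2 scale. Peroxidase 44 (DN24026_c1_g1), another class III peroxidase, had 8.72, 6.44 and 125 FPKM and rose by 4.08. A glycosyl hydrolase of family 28 (DN20503_c0_g2), the family of polygalacturonases that cut pectin, had 5.95, 2.42 and 56.0 FPKM and rose by 4.06. Both were low at 22 and 27 DAF and high at 32 DAF. The forward primers that the study designed for these unigenes and for the gibberellin-regulated protein are shown so that the transcripts can be found again:
peroxidase 44: atctgaaaaatcggcaggacc
glycosyl hydrolase family 28: agtgaaagcaaatggcaaac
gibberellin-regulated protein: ctttcaacaggaggtgcggt

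The named falls from 27 to 32 DAF were partly the end of the 27 DAF peak. CML44, cysteine proteinase inhibitor 5, SWEET12 and the glyoxalase-like protein fell by 3.36, fell by 3.11, fell by 2.27 and fell by 2.06 in turn, and a homologue of plant self-incompatibility protein S1 (DN15904_c1_g1) had 0.873, 9.60 and 1.07 FPKM. A NADH dehydrogenase transmembrane subunit (DN16014_c0_g1) had 14.6, 33.0 and 7.35 FPKM, a first difference of 1.12 as deposited and 0.77 scaled. The remaining 4 of the 10 were level from 22 to 27 DAF or, like that subunit, did not pass there in both settings. Late embryogenesis abundant protein D-29 (DN16562_c0_g1), of a family known for protecting drying seeds, had 27.6, 32.2 and 5.52 FPKM and fell by 2.35. Alpha-L-fucosidase 1 (DN13106_c0_g1), a glycosidase, had 71.9, 73.3 and 20.1 FPKM. A lipid-binding protein (DN12623_c0_g1) had 34.8, 36.2 and 11.7 FPKM, and pectinesterase 29 (DN16980_c0_g1), which demethylates pectin, had 3.54, 9.34 and 2.21 FPKM.

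**Figure D3:**
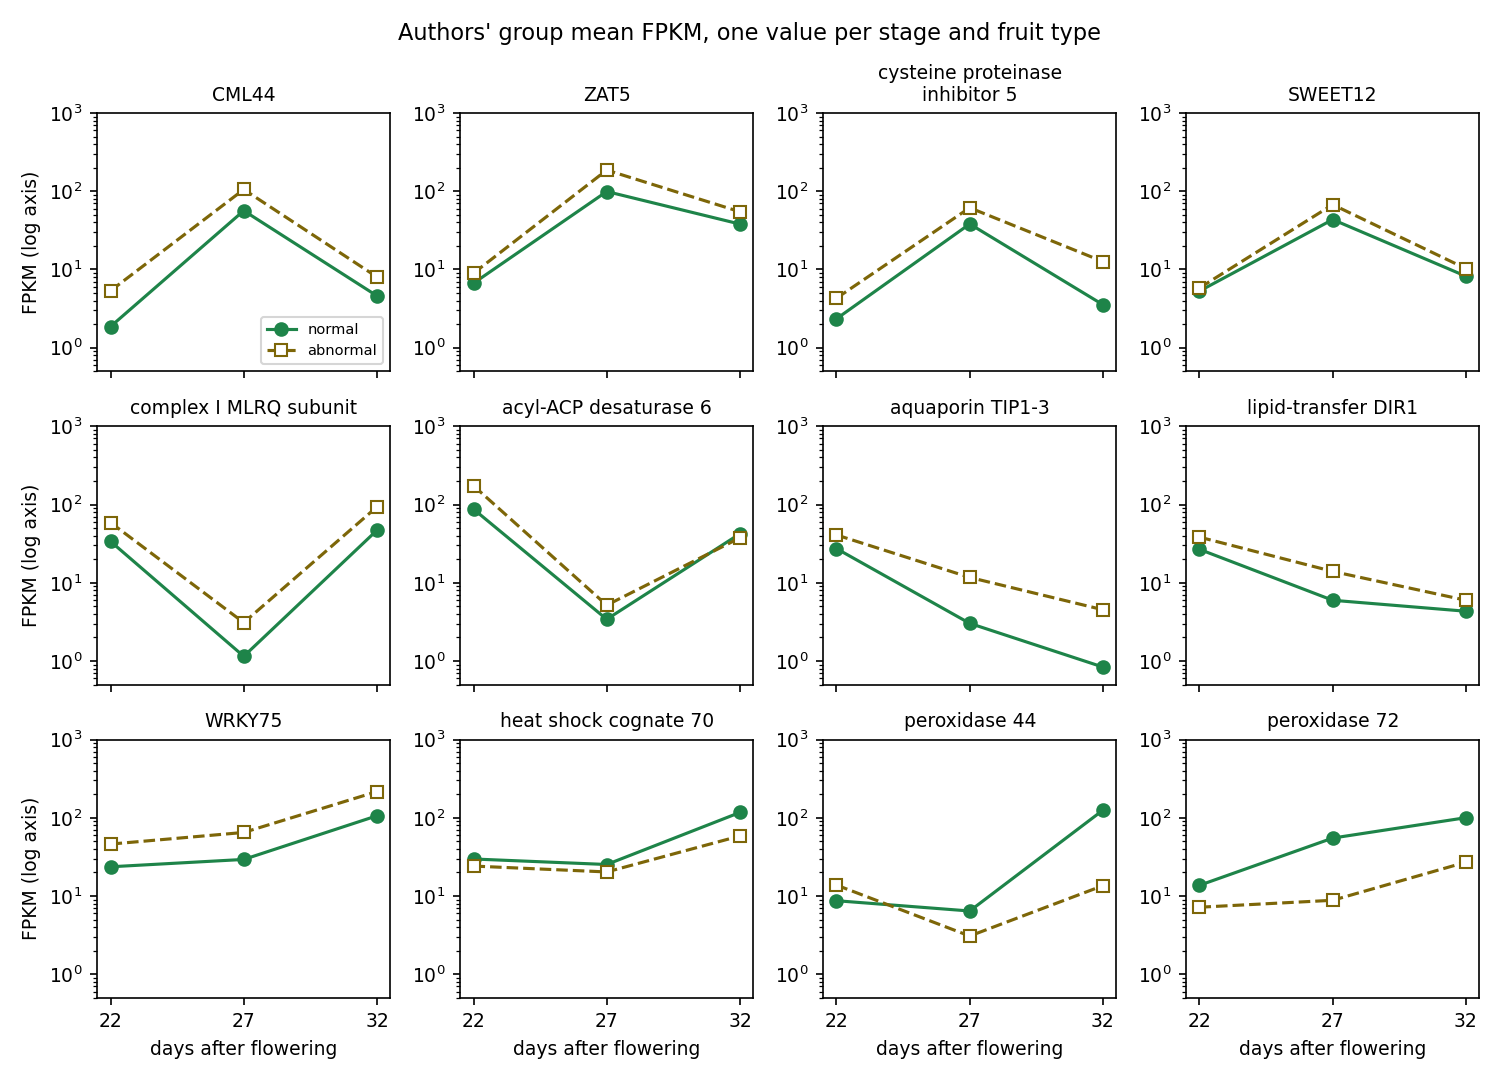
Authors' group mean FPKM (log axis) of 12 named unigenes at 22, 27 and 32 DAF, with filled circles for normal and open squares for abnormal fruits, 1 value per stage and fruit type. The top row peaks at 27 DAF in both fruit types, the MLRQ subunit and desaturase 6 have a low there in both, and peroxidase 44 ends at 125 FPKM in the normal fruits against 13.6 in the abnormal ones.

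The abnormal fruits of the same branches and dates give a second set of values, in columns of their own. The peak at 27 DAF recurred in them. As deposited, 289 of the 4091 unigenes above 0 at all 3 normal stages were more than 1 higher at 27 DAF than at both neighbours (7.06%), and 127 of these were so in abnormal fruits too. That is 43.9% of the 289 and 37.7% of the abnormal peaks, against 8.24% of all 4091 in abnormal fruits. After scaling, 67 of 125 normal peaks were peaks in abnormal fruits, which is 53.6% of the normal and 26.9% of the abnormal peaks, against 6.09% of all 4091. Lows at 27 DAF in normal fruits numbered 68 as deposited (1.66%) and 117 after scaling (2.86%), so that peaks outnumbered lows clearly as deposited only. Of the 68, 20 were lows in abnormal fruits too (29.4%, against 1.96% of the 4091), and of the 117, 29 were (24.8%, against 2.84%). Over all 8676 listed unigenes, with those at 0 included, 958 peaked in normal fruits (11%) and 172 had a low (1.98%), and 298 and 34 of them did so in abnormal fruits. Scaled, 740 peaked (8.53%) and 225 had a low (2.59%).

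Some named unigenes moved closely together in both fruit types. CML44 had 5.34, 105 and 8.02 FPKM in abnormal fruits, SWEET12 5.81, 67.4 and 10.3, the MLRQ subunit 58.8, 3.10 and 93.4, and desaturase 6 had 174, 5.17 and 37.5. Of the 10 named rises from 22 to 27 DAF, 10 had the same sign in abnormal fruits and 9 were past 1 there, beside 23.2% of all listed. Of the 10 falls 7 had the same sign and 4 were past 1, beside 11% of all. In the later step these numbers were 10 and 6 for the rises (9.98% of all past 1) and 9 and 8 for the falls (13.8%). A share with the same sign over all listed unigenes was not computed. Since both fruit types were taken from the same branches on the same dates, a stage of the fruit and a condition of the sampling day cannot be told apart.

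Over all listed unigenes the movement was less alike. Of the 1500 unigenes higher at 27 than at 22 DAF in normal fruits, 782 were higher in abnormal fruits too (52.1%, against 23.2% of all listed), with a median difference of 1.09. Lower there were 40 (2.67%, against 11% of all). Of the 880 lower ones, 187 were lower there (21.3%, against 11% of all). More of them, 293, were higher (33.3%, against 23.2%), so both directions were above their share of all. Of the 672 higher at 32 than at 27 DAF, 251 were higher in abnormal fruits (37.4%, against 9.98%) and 77 lower (11.5%, against 13.8%). Of the 1622 lower ones, 458 were lower (28.2%, against 13.8%) and 253 higher (15.6%, against 9.98%). The correlation of both sets of differences over unigenes was r = 0.17 (6990 unigenes) in the first step and r = 0.16 (6532 unigenes) in the second. These points share the assembly and the normalization, and unigenes are not independent replicates.

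**Figure D4:**
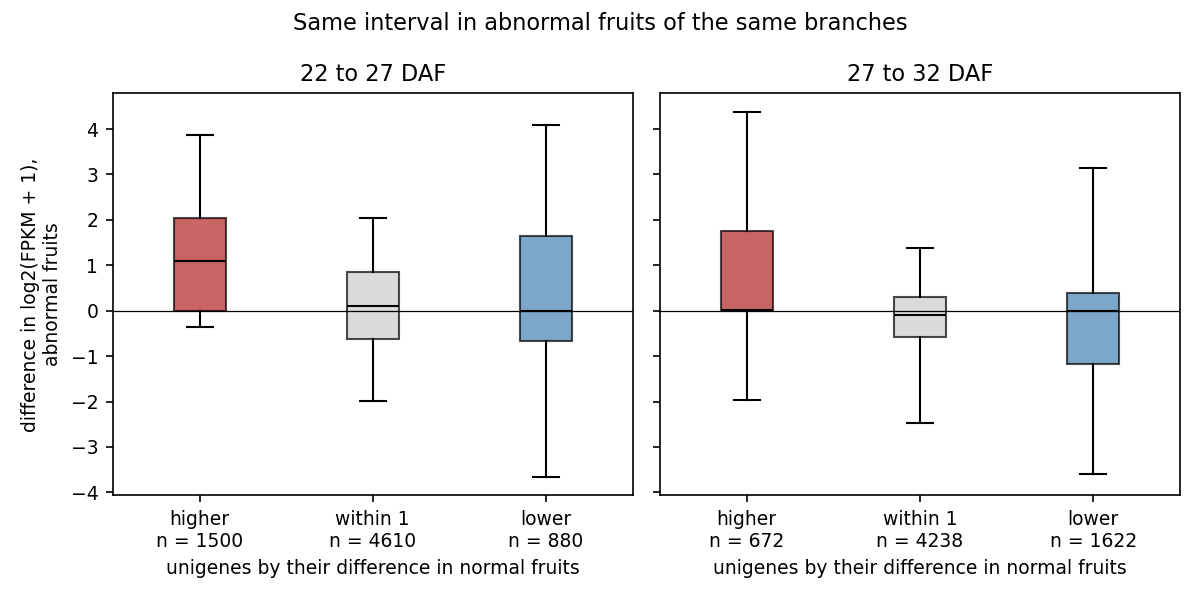
Differences in log2(FPKM + 1) in abnormal fruits for unigenes grouped by their difference in normal fruits over the same dates (higher by more than 1, within 1, lower by more than 1); boxes are quartiles with the median, whiskers the 5th and 95th percentiles over unigenes. The unigenes higher at 27 than at 22 DAF have a median of 1.09 in abnormal fruits, and the median of those lower is at 0.

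Some late rises were larger in normal fruits. Peroxidase 44 had 13.8, 3.08 and 13.6 FPKM in abnormal fruits, where normal fruits ended at 125. Glycosyl hydrolase family 28 ended at 11.2 FPKM in abnormal and 56.0 in normal fruits, and DN27529_c3_g1 at 46.3 and 467. Peroxidase 72 also ended lower in abnormal fruits, at 27.1 against 100.4 FPKM. Its difference from 27 to 32 DAF was larger there, however, at 1.51 against 0.85 as deposited. Abnormal fruits had the higher value at 32 DAF for WRKY75, with 216 against 106 FPKM, and for AOP1, with 186 against 95.6. With 1 mean per group these differences between fruit types were not tested.

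By function, transcription factors showed net rises and no net falls. The list held 35 annotated factors, 26 of them above 0 at 1 stage or more. From 22 to 27 DAF 6 rose (17.1%) and 0 fell, beside 13.3% and 10.1% of all listed unigenes. From 27 to 32 DAF 6 rose (17.1%) and 1 fell (2.86%), beside 7.75% and 13.5%. From 22 to 32 DAF 9 rose (25.7%) and 0 fell, beside 10.2% and 14.0%. The 9 were ZAT5, WRKY75, WRKY61, LBD12, LBD15, ERF098, RAP2-11, AGL80 and a Myb-related protein. WRKY61 (DN16000_c0_g1) and LBD12 (DN16319_c0_g1) were listed at 0 at 22 and 27 DAF and had 5.39 and 17.3 FPKM at 32 DAF, LBD12 being again at 0 at 37 DAF. AGL80 (DN16282_c0_g1), a MADS-box factor of the central cell in Arabidopsis, had 3.82, 4.31 and 9.71 FPKM. LBD15 (DN19385_c0_g1) had 1.09, 2.50 and 5.65 FPKM. Most of the 9 were thus weakly expressed, with ZAT5 and WRKY75 as the strong ones.

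Hormone-related genes included rises in the first step. The ethylene list held 10 unigenes, 6 of them above 0 at 1 stage or more. From 22 to 27 DAF 4 rose (40.0% of the 10, beside 13.3% of all) and 0 fell (beside 10.1%). All 4 were transcription factors of the AP2/ERF family and members of the list above as well, and not genes of ethylene synthesis. WIN1 (DN16580_c0_g1), whose Arabidopsis form switches on wax and cutin genes, had 7.45, 23.4 and 10.2 FPKM and rose by 1.53. RAP2-11 (DN13238_c0_g1) had 0.678, 3.83 and 5.27 FPKM, and an AP2-like factor (DN16385_c0_g1) was listed at 0 and then had 3.24 and 0.774 FPKM. From 27 to 32 DAF 1 rose (10%, beside 7.75% of all), ERF021 (DN13125_c0_g1), with 7.34, 3.68 and 10.2 FPKM.

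The auxin list held 6 unigenes, 3 of them above 0 at 1 stage or more. In the first step 2 rose and 0 fell, beside 13.3% and 10.1% of all. In the second 0 passed, beside 7.75% and 13.5%. From 22 to 32 DAF 2 rose and 1 fell, beside 10.2% and 14.0%. The fall was of a weak auxin canalisation unigene (DN15493_c0_g1), with 1.23 and 0.297 FPKM and then 0. An auxin responsive protein (DN10050_c0_g1) was listed at 0 at 22 DAF and had 17.5 and 12.7 FPKM after it. YUCCA8 (DN14474_c0_g1), an enzyme of the last step of auxin synthesis, had 0.314, 3.89 and 2.60 FPKM. The more abundant IAA13 unigene of the study (DN26918_c0_g2), a repressor of auxin responses, moved downward with 560, 324 and 262 FPKM, and fell by 1.09 over the whole interval. In the list of gibberellin and abscisic acid genes 0 of 3 passed in the first step, beside 13.3% and 10.1% of all. In the second 0 rose and 1 fell, beside 7.75% and 13.5%. The fall was of ent-kaurene synthase (DN24508_c2_g2), with 1.10 and 2.24 FPKM and then 0. Of the abscisic acid receptors named by the study, PYL8 (DN22391_c0_g1) had 38.1, 56.7 and 44.3 FPKM and PYR1 (DN24477_c0_g1) had 454, 698 and 485 FPKM, and neither passed in either step. The third receptor (DN23029_c0_g1, named PYR1 or PYL4 by the sources) had 58.8, 68.0 and 100.3 FPKM.

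Of 10 unigenes in the list of seed storage and late embryogenesis proteins, 0 rose and 5 fell from 22 to 32 DAF (beside 14.0% of all listed unigenes). The steps gave 1 rise and 3 falls (beside 13.3% and 10.1% of all), then 0 rises and 2 falls (beside 7.75% and 13.5%). The 5 that fell were LEA D-29, DIR1, the DC2.15-like protein, the lipid-binding protein and a vicilin (DN13857_c0_g1). The middle 3 of these are lipid-transfer type proteins that share a protein family with seed storage albumins and are not themselves storage proteins. The vicilin, a globulin store of the seed, had 4.18 FPKM at 22 DAF and was listed at 0 at 27 and 32 DAF, and provicilin (DN13930_c0_g1) had 0.879 FPKM and was then listed at 0 too. Other late embryogenesis members were weak and ended higher than at 22 DAF. LEA D-34 (DN16006_c0_g1) had 0, 1.46 and 0.813 FPKM and was the 1 rise of the first step. LEA protein 1 (DN16119_c0_g1) had 0.397, 1.70 and 0.899 FPKM and did not pass. The most abundant member of the list, non-specific lipid-transfer protein 4 (DN15649_c0_g1), had 182, 177 and 321 FPKM, a net difference of 0.82. In the overlapping list of lipid transfer and fatty acid genes only 4 of 9 were above 0 at 1 stage or more. Over the whole interval 0 rose and 2 fell. This stands beside 10.2% and 14.0% of all, and there was 1 fall in each step (beside 10.1% and 13.5%).

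Of the chaperone list, none of 7 passed from 22 to 27 DAF, beside 13.3% and 10.1% of all. From 27 to 32 DAF 2 rose (28.6%, beside 7.75% of all), the heat shock cognate protein and dnaJ 11, and none fell (beside 13.5%). The list median was 0.83 on the log2 scale and 1.15 after scaling. A DnaJ homologue (DN13967_c0_g1) had 629, 515 and 871 FPKM, and its later difference was 0.76 as deposited and 1.21 scaled. The chloroplast ClpC chaperone (DN17991_c0_g2) had 260, 419 and 282 FPKM, a later difference of −0.57.

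Transport, cell wall and phenylpropanoid lists moved in both directions. Of 14 channels and transporters, 9 were above 0 at 1 stage or more. In the first step 2 rose (14.3% of the 14) and 1 fell (7.14%), close to the 13.3% and 10.1% of all listed unigenes. In the second 3 rose (21.4%) and 2 fell (14.3%), beside 7.75% and 13.5%. Next to TIP1-3 these were weak unigenes, such as ABC transporters G41 (DN12093_c0_g1) and B1 (DN14144_c0_g2), which were listed at 0 at 22 and 27 DAF and had 3.29 and 2.74 FPKM at 32 DAF; B1 had 15.8 FPKM at 12 DAF. Of 10 cell wall unigenes, 6 were above 0 at 1 stage or more. In the first step 0 rose and 2 fell, beside 13.3% and 10.1% of all. In the second 1 rose and 1 fell, beside 7.75% and 13.5%. The abundant pectinesterase 31 (DN15673_c0_g1) had 105, 167 and 140 FPKM and did not pass, and polygalacturonase ADPG1 (DN15727_c0_g1), known from pod opening in Arabidopsis, was listed at 0 and then had 3.37 FPKM. Of 5 phenylpropanoid and flavonoid unigenes 1 rose, peroxidase 72, in the first step, beside 13.3% of all. Anthocyanidin reductase (DN12513_c0_g1), which makes epicatechin for condensed tannins, had 11.5, 24.1 and 18.9 FPKM, a first difference of 1.01 as deposited and 0.66 scaled.

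Of 10 annotated sugar and organic acid unigenes only 4 were above 0 at 1 stage or more. SWEET12 was the 1 that rose in the first step, beside 13.3% of all listed unigenes. In the second 2 fell (20.0% of the 10, beside 13.5% of all), SWEET12 and a lactate/malate dehydrogenase (DN15548_c0_g1). The dehydrogenase had 4.19 and 3.96 FPKM and then 0, and its best match is a red alga. Of the study's carbohydrate unigenes, fructose-1-6-bisphosphatase (DN18563_c0_g1) had 95.5, 89.9 and 45.3 FPKM, and fructose-bisphosphate aldolase (DN27174_c3_g1) had 333, 283 and 515 FPKM. NADP-dependent malic enzyme 2 (DN7242_c0_g1) had 392, 601 and 632 FPKM, and invertase B (DN27666_c0_g1), which cleaves sucrose, had 77.8, 84.8 and 43.2 FPKM. None of these passed in both settings in either step, and citrate synthase 4 (DN23508_c0_g1) was listed at 0 at all 3 stages. Of all 25 unigenes named by the study, 1 rose and 3 fell from 22 to 27 DAF, beside 13.3% and 10.1% of all listed unigenes. From 27 to 32 DAF 3 rose and 2 fell, beside 7.75% and 13.5%. The remaining 2 of these to fall in the first step, next to desaturase 6, were glycosyl hydrolase family 28 and a multicopper oxidase (DN19594_c0_g1, with 5.56, 1.70 and 1.61 FPKM), and MYB39 (DN26519_c2_g1) had 0.907, 3.46 and 0.801 FPKM.

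The photosynthesis list had 0 changes among 5 unigenes in both steps, with 2 above 0. All listed unigenes gave 13.3% and 10.1%, then 7.75% and 13.5%. The high-light-induced protein (DN13843_c0_g1) had 243, 417 and 312 FPKM, and the chaperonin of RuBisCO (DN18145_c0_g1) had 377, 399 and 300.0 FPKM. Of 30 cytosolic ribosomal proteins, 20 were above 0 at 1 stage or more. In the first step 1 rose and 1 fell, beside 13.3% and 10.1% of all listed unigenes. In the second 2 rose and 2 fell, beside 7.75% and 13.5%. From 22 to 32 DAF 4 rose (13.3%) and 3 fell (10%), beside 10.2% and 14.0%. The 3 with a best match in Prunus were the abundant ones and none of them passed, for example 60S acidic ribosomal protein P3-2 (DN25591_c0_g1), with 804, 949 and 775 FPKM. The 3 chloroplast ribosomal proteins were listed at 0. Their best match was Arabidopsis thaliana, as it was for the photosynthesis unigenes at 0. All 146 unigenes with that best match were at 0 at these stages, so the list cannot tell how chloroplast ribosomal transcripts of almond behaved. The small lists of cell cycle and chromatin (1 of 4 rose, then 1 fell), resistance proteins (2 of 6 rose, then 1 rose and 1 fell) and retrotransposons (2 of 11 rose and 1 fell, then the same numbers) rested on weak unigenes. In the cell cycle list the rise and the fall were both of MCM7 (DN14601_c0_g1), with 0, 4.66 and 0 FPKM. Its best match is a green alga, and cyclin-U4-1 (DN18093_c0_g1), matched to peach, did not pass. Another weak unigene was TMV resistance protein N (DN25309_c3_g2), listed at 0 at 22 and 32 DAF and at 10.6 FPKM at 27 DAF. The shares of all listed unigenes for these steps are those given above. Members above 0 at 1 stage or more numbered 2 in the cell cycle list, 5 in the resistance list and 6 among the retrotransposons.

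**Figure D5:**
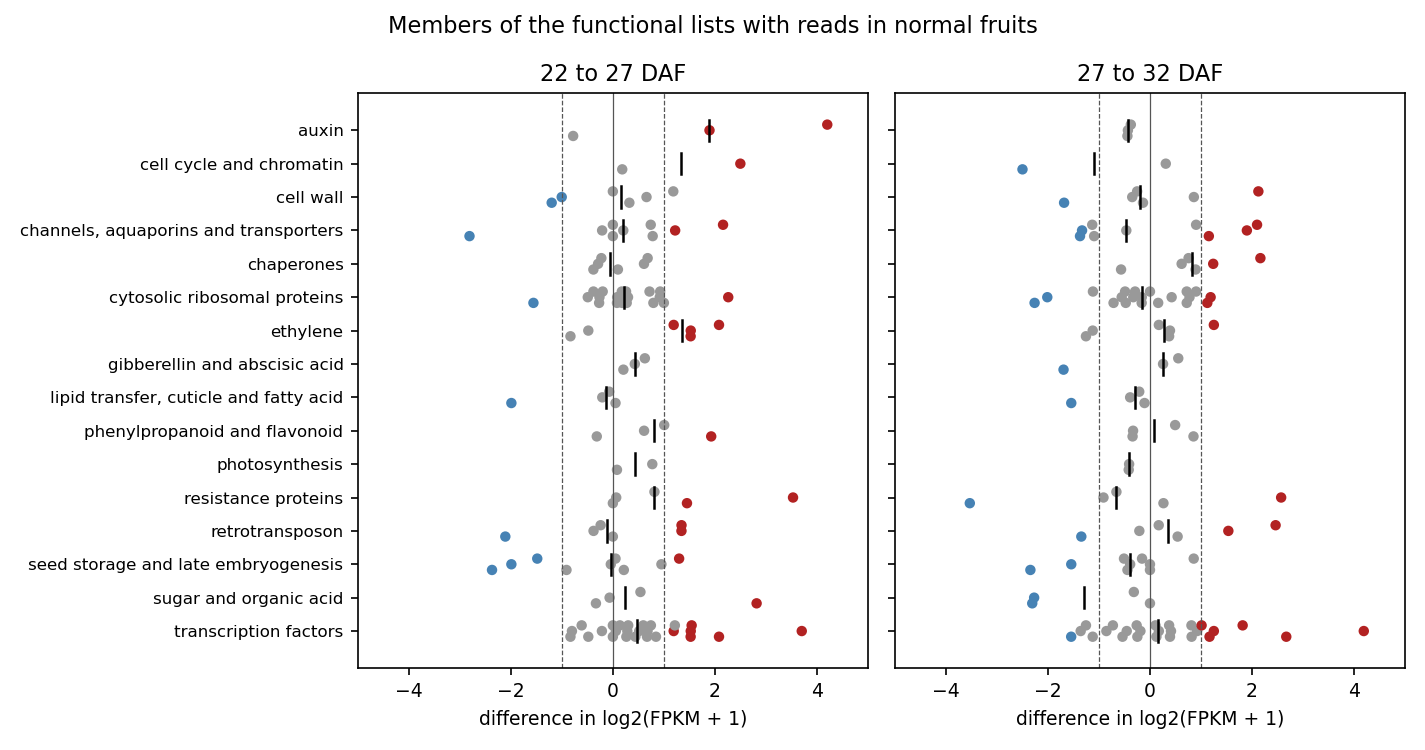
Differences in log2(FPKM + 1) of the members of 16 functional lists that were above 0 at 1 or more stages of normal fruits, for both steps; red and blue points passed 1 in both settings, grey points did not, and black bars are list medians. Chaperones have no coloured point from 22 to 27 DAF and 2 red ones from 27 to 32 DAF.

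The 64 unigenes with a best match in a fungus, oomycete or alga summed to 76.1 FPKM at 22 DAF, 103 at 27 DAF and 123 at 32 DAF, after 2.27 at 12 DAF and 1.68 at 17 DAF. These sums cover annotated unigenes only. Among the 64 unigenes, 6 rose and 6 fell in the first step (9.38% each, beside 13.3% and 10.1% of all). In the second 11 rose and 11 fell (17.2% each, beside 7.75% and 13.5%). Their part in the counts of weak unigenes was not tested. The 146 unigenes with a best match in Arabidopsis thaliana were listed at 0 at all 3 stages and so entered no change of the normal fruits described here. In abnormal fruits at 22 DAF, 85 of them were above 0, with a sum of 135 FPKM, and they were at 0 there at 27 DAF, which touches the 11% background of lower unigenes given above.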

How the data were processed

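The samples were 9 of normal fruits at 22, 27 and 32 DAF, grouped by their labels. Per the methods, the authors assembled unigenes with Trinity, aligned clean reads with Bowtie2, took read counts from RSEM, applied the normalization of DESeq2 and converted to FPKM. The deposited FPKM is an average over replicates in 1 column for each group, as the authors' column names say, so values per replicate were not used here, the reads behind a value are unknown, and no test, interval or detection limit was computed. It was not settled whether the replicates were sequenced as separate libraries. The listed unigenes are part of the assembly: each differed by 1 or more in log2(FPKM + 1) from normal fruits at 12 DAF in 1 or more groups (8676 of 8676, tolerance 0.0001), and 538 met this only at 22, 27 or 32 DAF of normal fruits.

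Differences of log2(FPKM + 1) were counted past 1, as deposited and after division by median-of-ratios factors over unigenes above 0 at all 3 stages (0.938, 1.21 and 0.882). For abnormal fruits the factors came from the same 3 stages. Alternatives were pseudocounts of 0.1 and 5, a highest value of 1 or 5 FPKM or more, equal totals and a threshold of 2. Protein names and best matches came from annotation tables held in part and from the study's text, and IDs matched 0 entries of the reference gene table. The 17 functional lists and 3 lists of best-match organisms were found by words in these annotations. Named unigenes were the 10 largest rises and 10 largest falls per step with 1 FPKM or more in both groups, a protein name and a best match in Prunus, Malus, Pyrus or Fragaria; the 2 largest of each among all unigenes; the 25 named by the study; the 3 with the highest level; and up to 4 per list. ERF098, LBD15, AGL80, the Myb-related protein, provicilin, LEA D-34, LEA protein 1, lipid-transfer protein 4, ClpC, pectinesterase 31 and ribosomal protein P3-2 fall outside this rule. They were named after their values were seen. The peak count and the comparison of it with abnormal fruits were also added after values were seen. The members and lists were chosen with earlier results of these data known. The counting was tested on simulated data. Python 3.11.15, numpy 2.4.6, pandas 2.3.3 and matplotlib 3.10.9 were used. The authors' cluster and fold change tables, and the quantitative PCR, were not used.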

Additional observations from a re-analysis of the deposited data

How the results depend on the processing

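In the order 22 to 27 DAF higher and lower, 27 to 32 DAF higher and lower, 22 to 32 DAF higher and lower, a pseudocount of 5 gave 730, 421, 312, 667, 420 and 521 unigenes, a highest value of 5 FPKM or more gave 954, 506, 386, 956, 558 and 703, and a threshold of 2 gave 589, 446, 328, 612, 345 and 530. These settings lower the counts by construction. With a pseudocount of 0.1, a highest value of 1 FPKM or more, median-of-ratios scaling and equal totals, each of the 6 counts was within 1.5 times its value as deposited. From 22 to 27 DAF the higher unigenes made up 63.0% of those counted as deposited, 52.7% after median-of-ratios scaling and 50.2% with equal totals. From 27 to 32 DAF they made up 29.3%, 41.6% and 31.2%, and from 22 to 32 DAF 41.3%, 44.1% and 29.9%. No named unigene or list median past 1 changed sign under the 2 pseudocounts and 2 scalings. No paired analysis was possible because the deposited columns hold 1 mean per group, and fits with a replicate block or without 1 replicate were not run for the same reason. Depth limits the weak unigenes most, and how many of the unigenes above 0 at a single stage rest on a few reads could not be computed.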
